A study of Mus musculus with 22 samples.

Results

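Zeb1, Zeb2, Snai1, Snai2, Twist1 and Twist2 are the 6 genes of the Zeb, Snail and Twist families, taken by name out of 21938 protein-coding genes. For each gene the locus was its span plus 20 kb on each side, and every accessible region (peak) that the authors' caller placed in a locus was used in each of 22 ATAC-seq libraries, an assay that marks open chromatin by where a transposase cuts. The libraries came from adipocyte nuclei of epididymal fat of mice labelled AdipoERCre x NuTRAP on a background that the labels spell C576BL6 and the methods of the study give as C57BL/N, in which tamoxifen-induced, adipocyte-driven Cre switches on a biotin tag on the nuclear envelope. All 8 groups carried the same alleles and received tamoxifen before the diets.

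In the short arm, C mice ate low-fat chow until 18 weeks of age (n = 3) and H mice ate high-fat diet for 12 weeks to the same age (n = 3). HC mice had 12 weeks of high-fat diet and then 8 weeks of chow, to 26 weeks of age (n = 3), and CC_s were their chow controls (n = 3). In the long arm, HH mice ate high-fat diet for 25 weeks to 31 weeks of age (n = 3) beside CC_l chow controls (n = 2), and HHC mice had 25 weeks of high-fat diet and then 8 weeks of chow, to 39 weeks of age (n = 3), beside CCC chow controls (n = 2). Each replicate is a separate biological sample. Tamoxifen preceded the diets, so the label marks adipocytes in which Cre had acted by then.

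Zeb, Snail and Twist proteins are transcription factors that bind E-box motifs in DNA. Zeb factors (zinc fingers and a homeodomain) and Snail factors (zinc fingers) mostly repress, and are known for silencing epithelial genes such as Cdh1, which encodes E-cadherin. Twist factors are basic helix-loop-helix proteins that pair with E proteins and are held back by Id proteins. Zeb1 is known as a factor of fat cell formation, and Twist1 and Twist2 are expressed in mesenchymal cells.

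Whether promoter sequence relates to the results was not tested. The sequences of 3 promoters are shown: Twist2, the one member promoter past the test, Twist1, its paralog, and Snai1, which alone held the motif searched. They are the 250 bases before the annotated start, from RefSeq on GRCm38.p6, at chr1:91801211-91801460 (plus strand) for Twist2, chr12:33957421-33957670 (plus strand) for Twist1 and chr2:167537945-167538194 (plus strand) for Snai1. Capitals mark the E-box CACCTG, or CAGGTG on the other strand, which do not overlap another motif searched.
Twist2 promoter: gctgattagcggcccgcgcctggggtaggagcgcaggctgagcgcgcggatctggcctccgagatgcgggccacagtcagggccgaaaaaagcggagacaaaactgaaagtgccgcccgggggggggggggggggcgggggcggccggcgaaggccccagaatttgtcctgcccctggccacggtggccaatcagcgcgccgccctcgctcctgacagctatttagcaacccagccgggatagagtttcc
Twist1 promoter: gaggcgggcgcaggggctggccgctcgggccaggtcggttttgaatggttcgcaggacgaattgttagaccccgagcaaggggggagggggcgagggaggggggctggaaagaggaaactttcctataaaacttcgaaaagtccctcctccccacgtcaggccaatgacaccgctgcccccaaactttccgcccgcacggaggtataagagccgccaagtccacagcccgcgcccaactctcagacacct
Snai1 promoter: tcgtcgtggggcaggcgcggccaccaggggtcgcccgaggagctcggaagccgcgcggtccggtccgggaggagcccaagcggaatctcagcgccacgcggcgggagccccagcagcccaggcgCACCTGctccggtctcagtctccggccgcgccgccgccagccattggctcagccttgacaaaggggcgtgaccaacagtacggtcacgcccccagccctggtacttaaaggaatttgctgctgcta
The Snai1 promoter held 1 match, starting 126 bases before the gene start, and the Twist2, Twist1 and Zeb2 windows held none. Of 32851 promoter windows of the same length, 17.2% held a match. RefSeq entries were found for 4 of the 6 members. Snai2 is named only, and no sequence is shown for Zeb1. GC content was 68.8% in the Twist2 window, 62.4% in Twist1, 70.0% in Snai1 and 49.6% in Zeb2, against a median of 52.4% over all windows.

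The depth of these libraries is given only by their peaks. The libraries held 40528 to 60523 peaks covering 128 to 299 Mb. Enrichment was gauged by dividing the maximum signal of the median peak by that of the weakest peak, and this ratio ran from 2.25 to 8.92. It was 6.82 to 8.92 in C and 4.70 to 6.40 in H, without overlap, and HC replicate 3 (2.43) and HHC replicate 3 (2.25) were lowest of all. The short and long arms were separate library series, so arm and series cannot be told apart. All 12 adipocyte markers had a promoter peak in every library. Promoters with a peak numbered 2 to 7 of 12 for macrophages, 7 to 10 of 12 for progenitors and fibroblasts, 2 to 12 of 12 for endothelial cells and 0 to 6 of 12 for mesothelial cells.

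Zeb2, a gene of 134 kb on the minus strand at chr2:44983632-45117395, had the most open locus of the 6. Peaks covered a median of 88.1% of its 174 kb, with a lowest library of 17.4% and a highest of 96.7%, and its mean ranked 149 of 21938 genes (99.3 percentile). In C the share was 77.6%, 92.1% and 96.7%, and in H it was 88.0%, 86.3% and 90.7%. The C and H values overlapped. In CC_s it was 73.8%, 93.4% and 91.6%, and in HC it was 96.0%, 85.0% and 17.4%. In the long arm it was 62.3% and 91.3% in CC_l, 41.5%, 94.0% and 88.2% in HH, 93.8% and 67.8% in CCC, and 82.1%, 91.7% and 24.4% in HHC. The lowest 2 libraries of all were HC replicate 3 and HHC replicate 3, the libraries of lowest enrichment.

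A single peak often spanned much of Zeb2. The widest peak in the locus ranged from 5.82 kb in HHC replicate 3 to 172 kb in C replicate 3, with a median of 84.6 kb. It was among the 10 widest peaks of the library in 6 of 22 libraries and among the 100 widest in 16. All peaks in the locus joined into 1 region of 175 kb, so the gene start, first exons and introns could not be separated into distinct elements in the union. Zeb2os, an antisense gene, lies within the locus and was under peaks in 22 of 22 libraries, so opening at the 2 genes cannot be told apart.

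**Figure D1:**
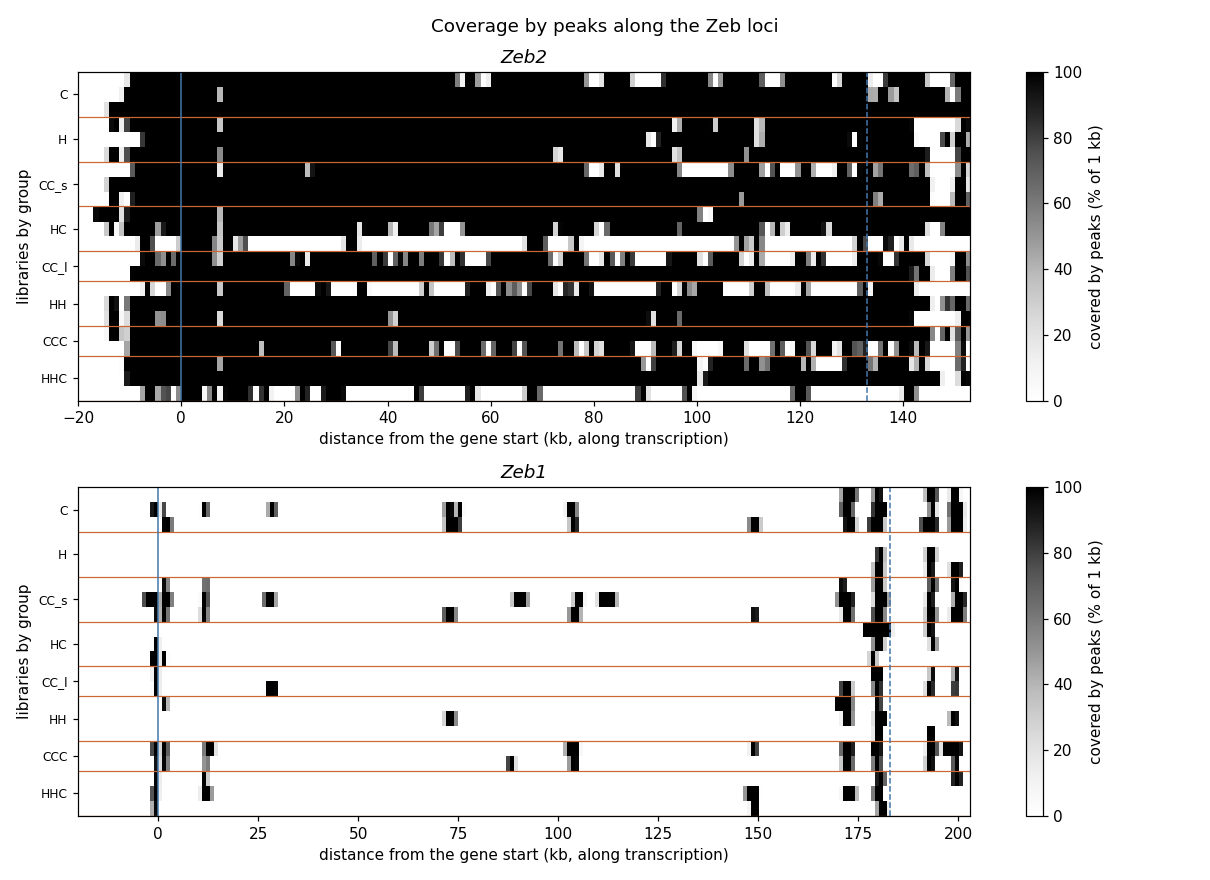
Share of each 1 kb bin covered by peaks (grey scale, 0 to 100%) along Zeb2 and Zeb1, against distance from the gene start in kb. Each row is 1 library, grouped between orange lines in the order of the replicate numbers, the solid blue line is the gene start and the dashed line the gene end. Zeb2 is covered nearly from end to end in most libraries, while Zeb1 holds short scattered peaks, most widely shared near its end. A peak lies over the Zeb1 start in 12 libraries, none of them from H.

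Zeb1 stood at the other end. Its span at chr18:5591860-5775467 on the plus strand is 184 kb, yet peaks covered a median of 4.56% of the 224 kb locus (0 to 16.0%), which placed its mean at the 35.4 percentile of genes. The share in C was 5.28%, 11.6% and 12.2%, and in H it was 0%, 2.13% and 3.51%. Every C library lay above every H library, as for 15.2% of genes with a peak in these libraries, and H replicate 1 held no peak in the locus. CC_s held 5.25%, 16.0% and 11.4%, and HC 4.19%, 2.53% and 2.13%, again without overlap, a separation that 7.80% of genes had in this direction. CC_l held 3.08% and 5.98%, and HH 3.43%, 4.93% and 1.87%, which overlapped. CCC held 11.8% and 7.81%, and HHC 3.48%, 6.26% and 2.71%, without overlap, as for 8.51% of genes in this direction. The peaks made 13 regions, of which 5 were present in at least 11 libraries. The most widely shared, at chr18:5767835-5774984 over an exon near the gene end, was present in 21 libraries, and the region over the gene start in 12.

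Twist2 had the largest Twist locus. Its gene at chr1:91801461-91848028 spans 46.6 kb on the plus strand, and peaks covered a median of 25.7% of its 86.6 kb locus (7.59% to 39.6%). C held 31.7%, 36.3% and 31.5%, and H 13.3%, 19.5% and 16.9%, so every H library lay below every C library, which was so for 15.2% of genes. CC_s held 25.2%, 36.9% and 35.0%, and HC 31.1%, 25.6% and 7.59%. CC_l held 22.1% and 35.0%, HH 16.1%, 25.7% and 15.7%, CCC 33.3% and 26.8%, and HHC 17.2%, 39.6% and 12.8%. In those 3 pairs the groups overlapped, and the low HC and HHC values of 7.59% and 12.8% came from the libraries of lowest enrichment.

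Twist1 and the Snail genes are short genes with a peak in their loci in all 22 libraries. Twist1, at chr12:33957671-33959829, had a median of 19.3% of its locus covered (10.9% to 32.0%). C held 27.7%, 32.0% and 22.9%, and H 21.6%, 10.9% and 17.2%, without overlap, again beside 15.2% of genes, while HH and CC_l overlapped. Of the Twist1 regions, 2 of 4 were present in all libraries. Snai2, at chr16:14705852-14709385, had a median of 9.64% (4.31% to 13.6%), and its promoter held a peak in all 22 libraries. Snai1, at chr2:167538195-167542814, had a median of 11.4% (5.39% to 26.6%), and its promoter held a peak in 17. One of the Snai1 regions, at chr2:167561826-167577071, lies mostly beyond the locus. Its region signal was counted whole, while the covered share took only the part inside the locus. The order of mean covered share was Zeb2, Twist2, Twist1, Snai1, Snai2 and Zeb1. Snai1, Snai2 and Zeb1 overlapped widely in their ranges, and so did Twist2 and Twist1. The median over all genes was 11.4%.

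**Figure D2:**
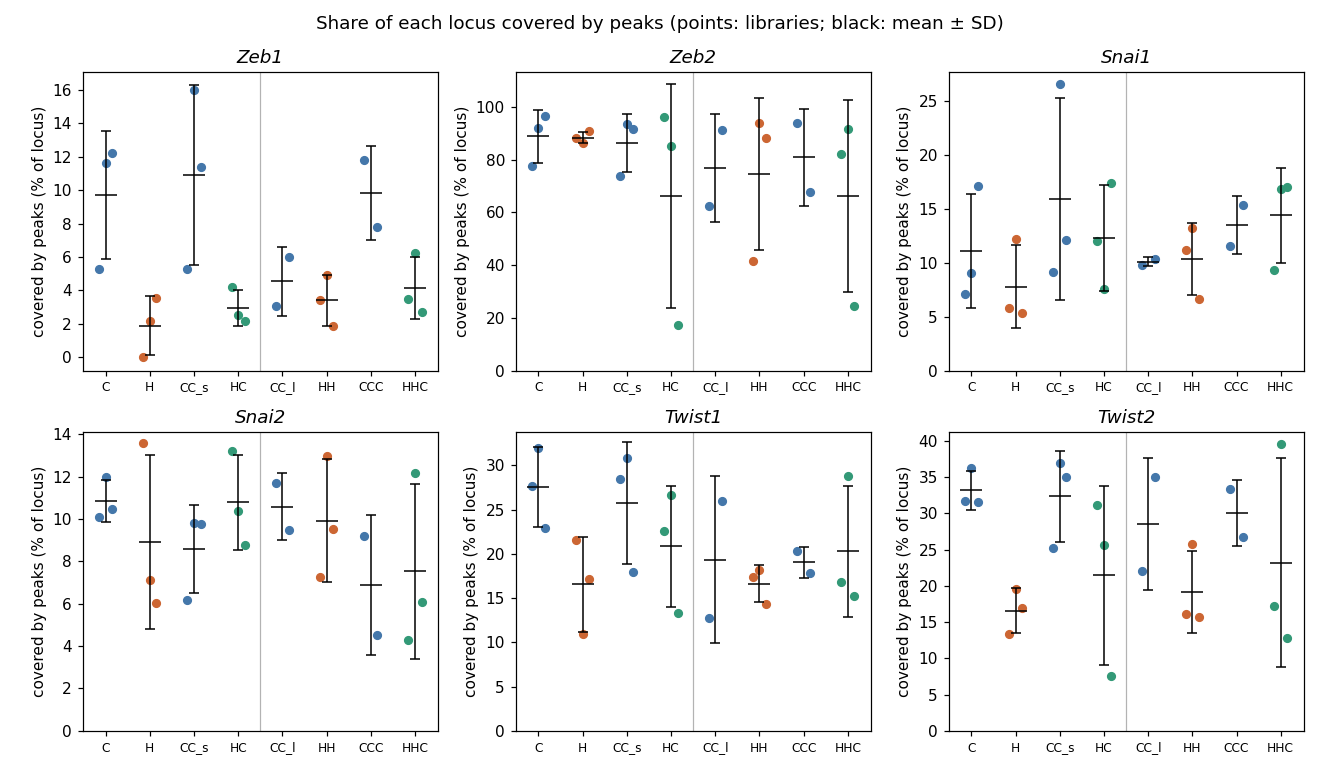
Share of each locus covered by peaks, in percent, by group. Points are libraries, black bars the mean ± SD, and the grey line parts the short from the long arm, so that H lies below C for Zeb1, Twist2 and Twist1, as for 15.2% of all genes with a peak, while the groups overlap for Snai1 and Snai2.

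The tests asked which loci differed between obese or formerly obese mice and their age-matched controls. The total signal of the peaks in each locus was rank-mapped onto 1 common log2 scale and fitted with limma over all genes, and a call needed an adjusted p under 0.05 and a difference over 2-fold. No member locus was called in any of the 4 pairs, where limma called 5.73% of genes for H against C, 0% for HC against CC_s, 0.00579% for HH against CC_l and 0% for HHC against CCC. At an unadjusted p under 0.05, limma gave 3 members in H against C, 1 in HC against CC_s, 0 in HH against CC_l and 1 in HHC against CCC, where 31.2%, 8.99%, 12.1% and 4.04% of all genes tested were under it. A looser rule, with the fold limit kept and an unadjusted p below 0.01, was met by 6.71%, 1.54%, 2.83% and 0.574% of genes in the 4 pairs, and by 1 member in HC against CC_s and 1 in HHC against CCC, Zeb1 in both. Leaving out any of 4 libraries in either pair brought these counts to 0, and so did 7 other processing choices in HC against CC_s and 4 in HHC against CCC.

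Zeb1 gave the largest locus differences of the members in H against C, HC against CC_s and HHC against CCC, but not in HH against CC_l. Its log2 locus signal was 15.31 ± 1.16 (SD, n = 3) in H and 17.15 ± 0.46 (SD, n = 3) in C, a difference of -1.84 ± 0.57 (SE) with a limma adjusted p of 0.0798. HC was at 16.05 ± 0.27 and CC_s at 17.24 ± 0.37, a difference of -1.19 ± 0.30 with a limma adjusted p of 0.379 and an unadjusted p of 0.00553. HHC was at 16.59 ± 0.10 and CCC at 17.74 ± 0.12, a difference of -1.15 ± 0.28 with a limma adjusted p of 0.856 and an unadjusted p of 0.00733. HH and CC_l differed by -0.12 ± 0.42, adjusted p 0.935 by limma. H replicate 1 was at the floor of the scale, 14.06, since it held no peak, so the H difference depends on that floor. The Zeb1 locus was called in H against C with median scaling (-1.53), with 50 kb flanks (-1.27) or without H replicate 3 (-2.36). It no longer met the looser rule in HC against CC_s without HC replicate 1 or 2 or CC_s replicate 2 or 3, nor in HHC against CCC without HHC replicate 1 or 2 or either CCC replicate. With 50 kb flanks, a fit to all libraries of the arm, maximum signal or the gene span alone, the rule was met in neither pair. Median scaling, the 30000 strongest peaks and the replicate block also ended it in HC against CC_s.

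Twist2 and Zeb2 passed the adjusted p in H against C but not the fold limit. Twist2 read 17.75 ± 0.17 in H and 18.55 ± 0.28 in C, a difference of -0.80 ± 0.18 with a limma adjusted p of 0.0386. Zeb2 read 21.04 ± 0.08 in H and 20.70 ± 0.10 in C, a difference of 0.34 ± 0.09 with a limma adjusted p of 0.0491. The direction for Zeb2 depended on the measure: with the maximum in place of the total signal the difference was -0.45, and the covered share overlapped. Snai1, Snai2 and Twist1 differed by -0.14, -0.39 and -0.55, with limma adjusted p of 0.845, 0.298 and 0.202. In HC against CC_s, HH against CC_l and HHC against CCC, the locus differences of Zeb2, Snai1, Snai2, Twist1 and Twist2 lay between -0.52 and 0.34, and none had a limma adjusted p under 0.05.

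**Figure D3:**
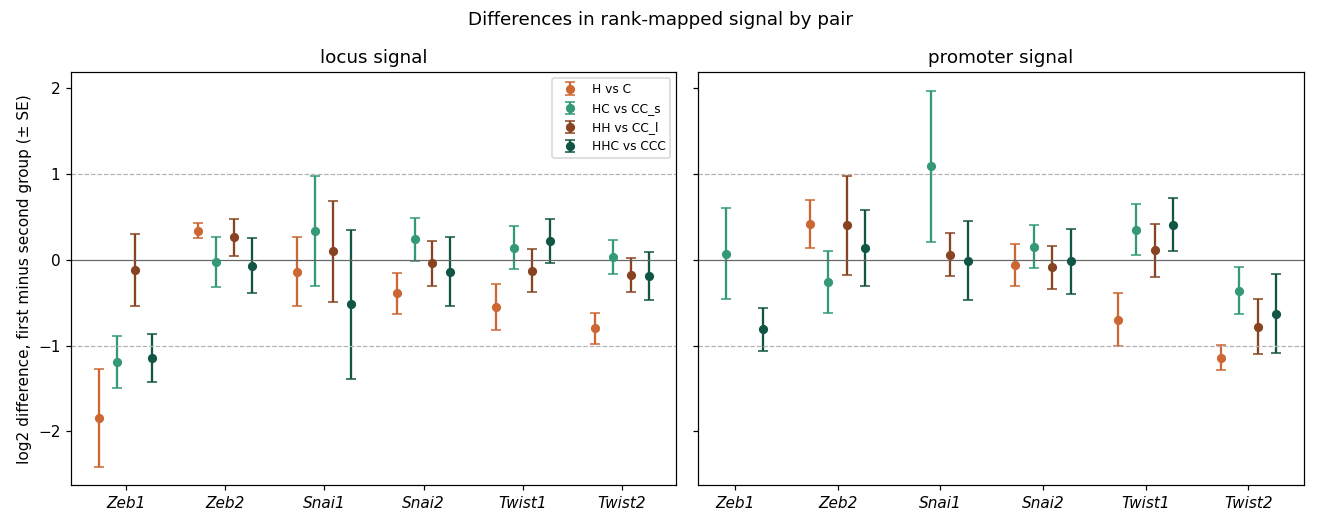
Difference in rank-mapped log2 signal, first minus second group, with its SE, for the locus (left) and promoter (right) of each gene in 4 pairs. Dashed lines mark the 2-fold limit, and the Zeb1 locus in 3 pairs and the Twist2 promoter in H against C lie below its lower side, the Snai1 promoter in HC against CC_s (1.09 ± 0.88) lies above its upper side, and values with too few libraries above the floor are left out.

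Each peak reaching within 2000 bp of a start was counted whole as promoter signal. A wide peak, as at Zeb2, thus brought in signal from beyond this window. Limma called 2.05% of genes for H against C, 0.0866% for HC against CC_s, 0.0843% for HH against CC_l and 0% for HHC against CCC. Twist2 was the 1 member promoter called, in H against C. Its C libraries read 15.41, 15.65 and 15.28, and all 3 H libraries were at the floor of 14.30. H replicate 2 held a promoter peak too weak to rise above it, and H replicates 1 and 3 held none. The difference was -1.14 ± 0.15 with a limma adjusted p of 0.0255, and it is a difference to the floor rather than a measured fold. Only C libraries lay above the floor, so the promoter entered the test through them alone, and H adds no measured spread. The call was lost with median scaling, with the maximum signal, with the replicate block and without H replicate 1, H replicate 2 or C replicate 2. Fewer than the required libraries lay above the floor for Zeb1 and Snai1 in H against C and for Zeb1 in HH against CC_l, so those were not tested.

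The Snai1 promoter differed by 1.09 ± 0.88 in HC against CC_s with a limma adjusted p of 0.770, and HC replicate 3 read 17.78 while HC replicates 1 and 2 were at the floor. HC replicate 3 had an enrichment ratio of only 2.43. Before rank-mapping, its promoter maximum signal was 31, below 49 and 44 in HC replicates 1 and 2 and 53, 108 and 81 in CC_s. The difference thus rests on the rank-mapped value of 1 library of low enrichment.

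In the other pairs the mean Twist2 promoter values lay below their controls without passing the test. HC read 15.01, 15.49 and 14.68 against 15.40, 15.31 and 15.54 in CC_s, which overlapped, while 6.12% of promoters tested lay lower without overlap. HH read 14.85, 15.21 and 14.30 against 15.39 and 15.74 in CC_l, a difference of -0.78 ± 0.32 with a limma adjusted p of 0.679. HHC read 15.48, 15.61 and 14.30 against 15.64 and 15.89 in CCC, with a limma adjusted p of 0.920. HH and HHC lay below their controls without overlap, as did 12.2% and 11.3% of the promoters tested, and the value of 14.30 in HHC came from replicate 3, of lowest enrichment.

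Joined across libraries, the peaks of the 6 loci gave 30 regions out of all union regions of the series, of which 8 were present in all 22 libraries. Limma called 8.28% of regions for H against C and 0% in each of the other 3 pairs. Of 16 member regions tested in H against C, 1 was called, over the Twist2 start at chr1:91798317-91804242, with all H libraries at the floor of 14.01, although H replicate 2 held a peak, and 15.41, 15.79 and 15.36 in C. The difference to that floor was -1.50 ± 0.21 and the limma adjusted p 0.00751. The call was lost without C replicate 2, with maximum signal and with the 30000 strongest peaks. Antisense Gm29100 lies in the Twist2 locus, and ATAC-seq signal carries no strand. In the Zeb1 locus the smallest p in H against C was at an exon region, chr18:5760862-5766473, with a peak in every C library and 0 of the 3 from H, at a difference to the floor of -0.54 ± 0.14 and a limma adjusted p of 0.0338, short of the fold limit. A second Twist2 region, intronic and present in all libraries at chr1:91815435-91830960, differed by -0.83 ± 0.16 with a limma adjusted p of 0.0159, short of the fold limit. The Twist1 promoter region at chr12:33953617-33965075 differed by -1.0 ± 0.33, adjusted p 0.0698 by limma. At an unadjusted p under 0.05, limma gave 7 member regions in H against C, 1 in HC against CC_s, 0 in HH against CC_l and 3 in HHC against CCC, where 34.9%, 12.0%, 13.7% and 6.14% of all regions tested were under it. The unadjusted rule at 0.01 was met by 8.52%, 2.54%, 2.68% and 0.706% of regions in the 4 pairs. Of the member regions, the Twist2 start region met it in H against C and 1 region in HHC against CCC. That region, in the Zeb1 flank at chr18:5782108-5786722, was present in 0 of 3 HHC and 2 of 2 CCC libraries. All HHC libraries were at the floor of 14.01 there, so its value is a difference to the floor. The Twist2 start region, the Zeb1 exon region and this flank region entered their tests through control libraries alone.

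**Figure D4:**
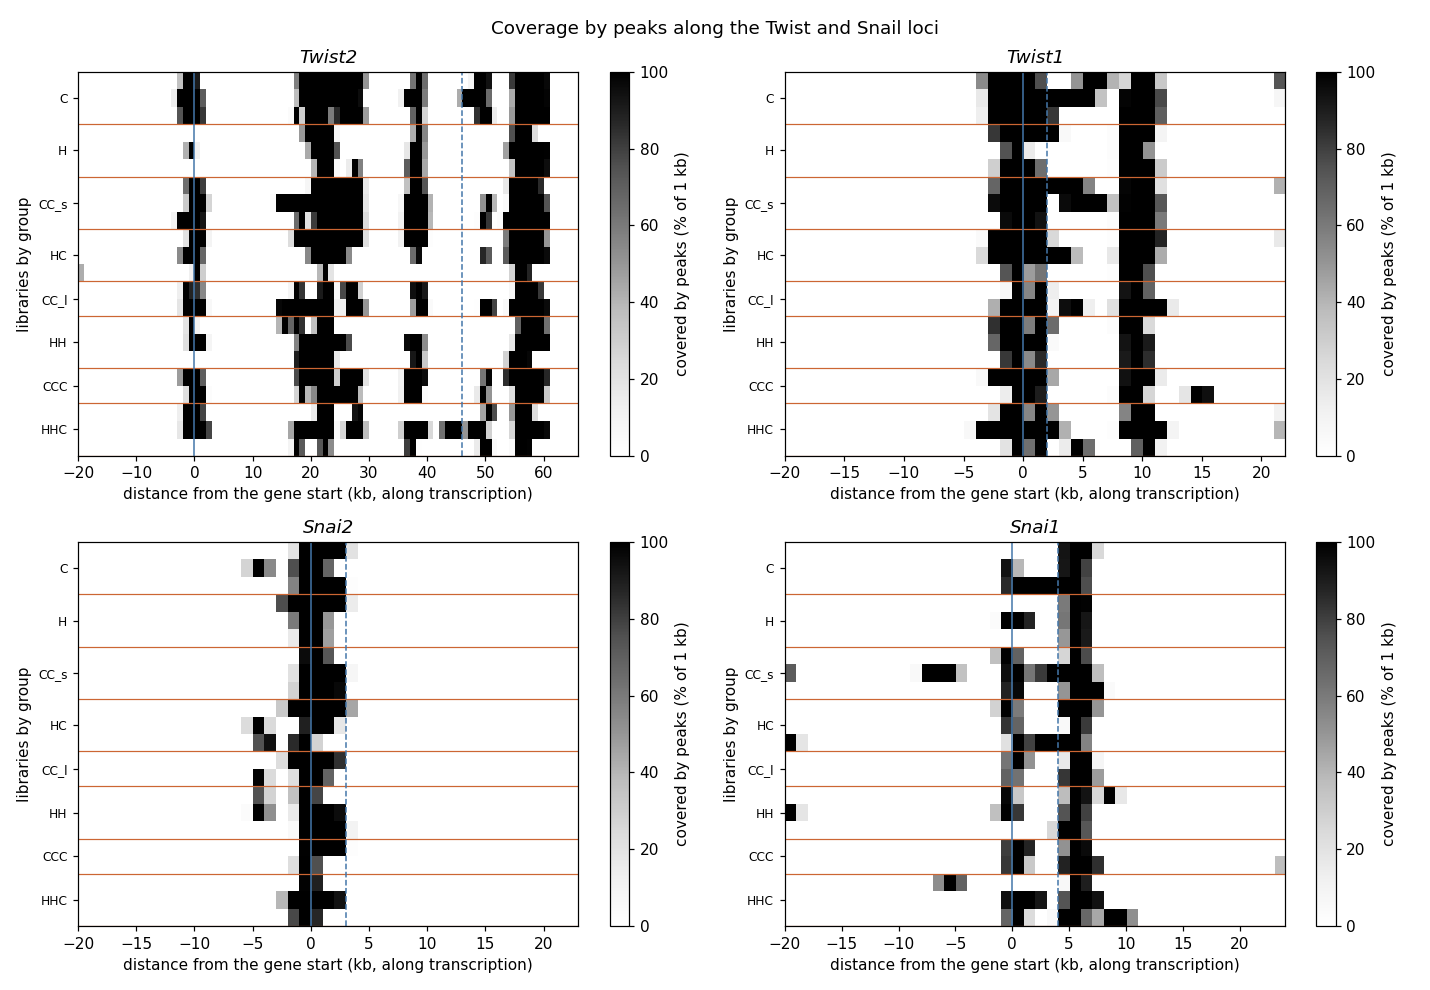
Share of each 1 kb bin covered by peaks (grey scale, 0 to 100%) along Twist2, Twist1, Snai2 and Snai1, against distance from the gene start in kb, with libraries in rows as for the Zeb loci. The band at the Twist2 start is empty in H replicates 1 and 3, HH replicate 3 and HHC replicate 3, while the bands at the Twist1 and Snai2 starts appear in every library.

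Covered length was compared over both arms together, with libraries relabelled within arms in an exact two-sided permutation test whose smallest p is 0.005 for obese or weight loss against control. For obese against control (H with C, HH with CC_l), 17.8% of all genes had an exact p under 0.05. Zeb1 covered a mean of 5.91 kb in obese and 17.1 kb in control libraries, a difference over arms of -9.99 kb with an exact p of 0.035. Within arms the difference was -17.5 kb for H against C and -2.50 kb for HH against CC_l, with exact p of 0.1 and 0.5, where 0.1 is the smallest that an arm allows. Twist2 covered 15.4 kb against 27.1 kb, a difference of -11.2 kb with an exact p of 0.015, and within arms -14.4 kb and -8.09 kb, with exact p of 0.1 and 0.3. Of the 11 libraries, leaving out any of 8 brought the Zeb1 exact p to 0.05 or more, and leaving out CC_l replicate 2 did so for Twist2. The exact p was also above 0.05 for Zeb1 with the 30000 strongest peaks (-3.52 kb) or the gene span alone (-6.39 kb), and for Twist2 with the 10000 strongest peaks (-3.53 kb). The other 4 members had exact p between 0.095 and 0.915. Adjusted over all genes, the exact p was 0.227 for Zeb1 and 0.170 for Twist2.

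For weight loss against control (HC with CC_s, HHC with CCC), 7.54% of genes had an exact p under 0.05. Zeb1 covered 7.94 kb against 23.4 kb, a difference of -15.2 kb, with an exact p of 0.005, the smallest the design allows, and 0.569 adjusted over all genes. The differences were -17.7 kb in the short arm and -12.6 kb in the long arm, each with an exact p of 0.1, the smallest for either arm alone. Pooled over arms, 5 of 6 weight loss libraries lay below every control library, a count whose share over all genes was not computed. Within arms, every weight loss library lay below its controls, as for 7.80% of genes in the short arm and 8.51% in the long arm. Without HC replicate 3 and HHC replicate 3, a choice made after seeing the data, the exact permutation p was 0.05. The other members had exact p between 0.195 and 0.730. Weight loss against obese gave an exact p under 0.05 for 4.71% of genes and for no member, the lowest being 0.1 for Snai1. A test of whether the obesity or weight loss difference of the locus signal differed between arms called 0% of genes in both, and no member by limma. Unadjusted, the lowest p were 0.0419 for Twist2 and 0.0585 for Zeb1, both for obesity, where 5.02% of all genes had a p under 0.05.

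Covered length moved with the enrichment of the library for Zeb1, Zeb2, Twist1 and Twist2, less so for Snai2 and not for Snai1. Over 22 libraries, Pearson's r with the enrichment ratio was 0.647 for Zeb1, 0.810 for Zeb2, 0.771 for Twist2, 0.655 for Twist1, 0.414 for Snai2 and -0.0749 for Snai1, and without the 2 libraries farthest from the median ratio it was 0.645, 0.665, 0.672, 0.604, 0.365 and 0.192. These libraries share their groups, and the part of enrichment in the differences was not tested. Promoter peaks at mesothelial markers were counted without a test: 0 of 12 had a promoter peak in every H library against 2 to 4 in C, and 0 to 1 in HH against 3 in CC_l. Of these 12, Upk1b, Bnc1, Krt7, Gpm6a and Krt14 had no promoter peak in any library. The summed log2 promoter level of the list was 172 in H and 172 to 175 in C, 172 in HH and 173 to 175 in CC_l, 175 to 179 in HC and 173 to 177 in CC_s, and 175 to 179 in HHC and 172 to 173 in CCC. At the loci in H against C, mesothelial markers went both ways, with Upk1b called higher (1.85 ± 0.24, limma adjusted p 0.0113), Lrrn4 called lower (-1.27 ± 0.18, limma adjusted p 0.0140) and a median of -0.01 over the 8 tested.

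For progenitors and fibroblasts the summed promoter level was 180 to 181 in H and 180 to 182 in C. At their loci in H against C, 2 of 12 tested were called lower, Cd34 (-1.10 ± 0.20, limma adjusted p 0.0233) and Col3a1 (-1.09 ± 0.21, limma adjusted p 0.0266), and Thy1 met the looser rule (-1.38 ± 0.37, limma adjusted p 0.0583). The list went both ways, with a median of -0.12 against -0.01 over all genes tested. Lum (1.61 ± 0.53) and Postn (0.87 ± 0.29) were not called, each with a limma adjusted p of 0.0943, and the Postn promoter met the looser rule at 1.10 ± 0.21 with a limma adjusted p of 0.0581. Of 9 endothelial loci tested, Cdh5 was called higher (2.89 ± 0.40, limma adjusted p 0.0125) and Vwf lower (-1.06 ± 0.25, limma adjusted p 0.0411). Differences were above 0 for 7 of the 9, with a median of 0.47 against -0.01 over all genes tested, and the median was 0.64 against -0.03 in HH against CC_l. The summed promoter level of endothelial markers was 178 to 181 in H and 177 to 178 in C, and 179 to 198 in HH and 177 to 179 in CC_l. No adipocyte locus of 12 and no macrophage locus of 7 tested was called by limma. At promoters, the adipocyte genes Fabp4 in H against C (1.12 ± 0.17, limma adjusted p 0.0327) and Pparg in HC against CC_s (-2.73 ± 0.31, limma adjusted p 0.0473) were called, beside 2.05% and 0.0866% of all promoters. The share of loci called over all genes in H against C was 5.73%. The part of these markers in the results was not tested. In bulk nuclei, fewer cells of a type and less opening per cell cannot be told apart.

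Partners of these factors were mostly past no test. Of 18 partner genes, 1 of 18 tested loci was called in H against C: Id1, an inhibitor of basic helix-loop-helix factors, lower by -1.03 ± 0.17 with a limma adjusted p of 0.0180, where 5.73% of all genes were called. The median of the list was -0.20 against -0.01 over all genes tested. Kdm1a, a histone demethylase that Snail recruits, differed by -1.84 ± 0.46 in HHC against CCC, with a limma adjusted p of 0.856. Tcf4, an E protein, differed by 0.51 ± 0.15 in H against C, with a limma adjusted p of 0.0712.

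Of 16 epithelial target genes, 13 or 14 loci and 3 to 5 promoters were tested in a pair, and limma called none of these, with locus medians of -0.06, -0.20, -0.20 and 0.07 in the 4 pairs, and 7 of the 16, Cdh1 among them, had no promoter peak in any library. Cdh1 locus differences ran from 0.08 to 0.59, all with limma adjusted p over 0.4. Epcam, an epithelial adhesion gene also without a promoter peak in any library, differed by -2.11 ± 0.29 at its locus in HH against CC_l, with a limma adjusted p of 0.10. Of 8 mesenchymal genes, 1 locus was called in H against C, where 5.73% of all genes were. Differences there were above 0 for 7 of the 8, with a median of 0.55 against -0.01 over all genes tested, and the promoter median was 0.69 over 5 tested against 0.03. Acta2, which encodes smooth muscle actin, was higher by 1.76 ± 0.27 with a limma adjusted p of 0.0153, and differed by 1.49 ± 0.39 in HH against CC_l with a limma adjusted p of 0.228. In H against C its promoter differed by 2.37 ± 0.62 with a limma adjusted p of 0.111, and Sparc, a matrix glycoprotein, had a called promoter difference of 1.05 ± 0.18 with a limma adjusted p of 0.0415. Vim, an intermediate filament gene, differed by 0.39 ± 0.12 at its locus in H against C, with a limma adjusted p of 0.0786. Mmp2, a matrix metalloproteinase gene named after its values were seen, was the 1 locus below 0, at -1.0 ± 0.21 with a limma adjusted p of 0.0312, and was not called.

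The miR-200 family is known to repress Zeb1 and Zeb2, so its mature strands are shown, with the seed (bases 2 to 8) in capitals, from RefSeq on GRCm38.p6.
mmu-miR-200a-3p: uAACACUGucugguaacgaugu
mmu-miR-200b-3p: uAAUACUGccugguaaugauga
mmu-miR-429-3p: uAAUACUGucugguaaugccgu
mmu-miR-200c-3p: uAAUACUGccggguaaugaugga
mmu-miR-141-3p: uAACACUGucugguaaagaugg
The 3 strands of miR-200b, miR-429 and miR-200c share the seed AAUACUG, and the 2 of miR-200a and miR-141 share AACACUG. A peak lay over the Mir200c and Mir141 genes on chromosome 6 in 19 of 22 libraries each, and over Mir200a, Mir200b and Mir429 on chromosome 4 in 1 library each. Peaks covered a median of 56.4% of the Mir200c locus and 1.78% of the Mir200b locus. The Mir200c and Mir141 loci overlap, and no test was run on these loci.

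Genes whose rank-mapped locus signal was most like a member over the 22 libraries were searched on other chromosomes among 17144 genes, as a description with no test. Tmcc1 was nearest Zeb1 (Pearson's r 0.897, Spearman's rho 0.840, and r 0.829 without the 2 libraries farthest from the median), Map4k4 nearest Zeb2 (0.900, 0.887 and 0.837) and Nadsyn1 nearest Snai1 (0.898, 0.875 and 0.826). Vnn3 was nearest Twist2 (0.866, 0.845 and 0.751), Cdadc1 nearest Snai2 (0.794, 0.711 and 0.640) and Akr1b3 nearest Twist1 (0.768, 0.643 and 0.565). The next genes were Parp16 and Zfp157 for Zeb1, Sec22b and Setd5 for Zeb2, Mettl23 and Taok2 for Snai1, Zfp869 and Dusp23 for Snai2, AL731706.2 and Fmn2 for Twist1, and Cbr1 and Setd4 for Twist2. All libraries share the same depth and enrichment differences, which enter every one of these values.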

How the data were processed

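ATAC-seq was done on biotin-labelled adipocyte nuclei of 22 samples in 8 groups. According to the labels and methods, the authors trimmed reads with Trim Galore 0.6.6, aligned them to mm10 (GRCm38) with Bowtie2 2.4.4 and SAMtools 1.13, made coverage with bedtools 2.30 and called peaks in each library with SEACR 1.3. The deposited values are the total and the maximum coverage signal of each peak, with no normalization between libraries stated, and read depth is unknown, so no interval for counting error is given. Peak number, width and signal can therefore shift with depth and enrichment. Loci came from GENCODE vM21 (gene span plus 20 kb on each side). For signal, a peak counted whole where it overlapped a locus or promoter window, while covered length and share took only the part inside the locus. Signals were rank-mapped to the mean sorted log2 values of the 22 libraries, with weaker features at a floor, and fitted per pair with limma 3.58.1 in R 4.3.3, with Benjamini-Hochberg adjustment over all genes or regions. Covered length was compared by exact permutation within arms. Scripts were tested on simulated data. Within a locus, the regions named were the one over the gene start, the one present in most libraries and those of smallest p in a pair. Genes of the partner, epithelial and mesenchymal lists were named when past the unadjusted rule, besides Cdh1, Vim and Tcf4. That rule did not cover the cell type markers, and those named, like Mmp2, were chosen after their values were seen. The members and lists were chosen with earlier results of these data known. Alternatives are given in the closing section.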

Additional observations from a re-analysis of the deposited data

How the results depend on the processing

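Across 79 results, 969 of 1133 alternative values kept direction and side of the threshold. The promoter alternatives, the 10000 strongest peaks and the omission of HC replicate 3 with HHC replicate 3 were chosen after seeing the data. Causes were not tested.

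In H against C, 1 member locus (Zeb1) was called with median scaling (-1.53) and with 50 kb flanks (-1.27), and 1 met the unadjusted rule with these, with a fit to all libraries of the arm (the arm fit), the gene span alone and the replicate block. Zeb1 no longer met that rule (count 0) in HC against CC_s with median scaling, 50 kb flanks, the arm fit, maximum signal, 30000 strongest peaks, the replicate block or gene span alone, nor in HHC against CCC with 50 kb flanks, the arm fit, maximum signal or gene span alone. Called member regions in H against C numbered 2 with median scaling or the arm fit and 0 with maximum signal or 30000 peaks. The Twist2 promoter call was lost (0 called) with median scaling (-0.565), maximum signal (-0.46) and the replicate block (-1.14).

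Direction turned, in log2 locus signal, as follows. With maximum signal, H against C gave -0.45 for Zeb2 and 0.19 for Snai1, HH against CC_l -0.11 for Zeb2 and 0.041 for Snai2, HHC against CCC 0.060 for Zeb2, and HC against CC_s -0.093 for Snai2. Median scaling gave 0.018 for Snai2 in HHC against CCC. For Twist2 in HC against CC_s, the value was -0.014 with median scaling, -0.029 with 50 kb flanks, -0.038 with 30000 peaks, -0.16 with the gene span and -0.11 when clipped to the locus. For Snai1, 50 kb flanks gave -0.26 in HC against CC_s and -0.32 in HH against CC_l, the gene span -0.071 in HH against CC_l, and clipping -0.007 there and 0.032 in HHC against CCC. In HH against CC_l, Zeb1 was at 0.60 with 30000 peaks and 0.38 with the gene span, and Twist1 at 0.093 with the gene span. In promoter signal, maximum signal gave -0.49 (H against C) and -0.023 (HH against CC_l) for Zeb2, -0.081 (HC against CC_s) and 0.041 (HH against CC_l) for Snai2, 0.28 for Twist2 in HC against CC_s and -0.14 for Twist1 in HH against CC_l, and median scaling gave Zeb2 -0.045 in H against C and -0.28 in HHC against CCC.

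Covered length in kb, obese minus control, lost its exact p under 0.05 for Zeb1 with 30000 peaks (-3.52) and the gene span (-6.39), and for Twist2 with 10000 peaks (-3.53), while Twist1 passed with 10000 peaks (-5.97). Zeb2 turned to 7.23 as a share of covered bases and 8.08 with 10000 peaks. Weight loss minus control was 1.1 (Snai1) and 0.584 (Twist1) as a share of covered bases, 0.615 and 0.585 with 10000 peaks, and -0.472 (Snai2) with the gene span. Weight loss minus obese was -0.00933 for Zeb1 with 30000 peaks, and 0.615 for Snai2 and -0.486 for Twist2 with 10000 peaks. Without HC replicate 3 and HHC replicate 3 together, weight loss minus control was -13.9 for Zeb1 (exact permutation p 0.05), 8.93 for Zeb2 and 0.538 for Twist1, and weight loss minus obese was 12.6 for Zeb2, 0.275 for Snai2 and 9.12 for Twist2 (exact permutation p 0.04). The 10000 strongest peaks held none at Zeb1, nor at Snai1 in obese and control libraries.

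Same-numbered samples had deviations correlated between -0.211 and 0.221, and not every sample correlated best with its own number, so they share only a number. With the replicate block, the exact sign-flip test of 5 pairs has a smallest p of 0.0625, and the differences were -10.8 (Zeb1) and -11.3 (Twist2) for obese minus control and -15.1 (Zeb1) for weight loss minus control. The block turned the locus signal to 0.23 for Zeb1 and 0.024 for Snai2 in HH against CC_l and 0.17 for Zeb2 in HHC against CCC.

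Leaving out 1 library gave 0 to 1 called loci (1 without H replicate 3), 0 to 1 called regions (0 without C replicate 2) and 0 to 1 called promoters (0 without H replicate 1, H replicate 2 or C replicate 2) in H against C, where 0 to 1 loci met the unadjusted rule. That count was also 0 to 1 in HC against CC_s (0 without HC replicate 1 or 2 or CC_s replicate 2 or 3) and in HHC against CCC (0 without HHC replicate 1 or 2 or either CCC replicate). A lone remaining control was assumed to vary like the other group. Locus signal ranged in H against C from -2.36 to -1.21 for Zeb1 and -0.506 to 0.139 for Snai1. In HC against CC_s it ranged from -0.237 to 0.302 for Zeb2, -0.365 to 0.753 for Snai1 and -0.048 to 0.168 for Twist2. In HH against CC_l it ranged from -0.401 to 0.234 for Zeb1, -0.325 to 0.662 for Snai1, -0.157 to 0.025 for Snai2 and -0.392 to 0.123 for Twist1. In HHC against CCC it ranged from -0.367 to 0.167 for Zeb2, -1.65 to 0.617 for Snai1 and -0.390 to 0.116 for Snai2. Promoter signal ranged from -0.269 to 0.093 (Snai2) and -1.23 to -1.04 (Twist2) in H against C, -0.538 to 0.371 (Zeb1) and -0.068 to 1.67 (Snai1) in HC against CC_s, -0.305 to 1.10 (Zeb2), -0.126 to 0.242 (Snai1), -0.201 to 0.048 (Snai2) and -0.123 to 0.331 (Twist1) in HH against CC_l, and -0.258 to 0.547 (Zeb2), -0.409 to 0.379 (Snai1) and -0.223 to 0.270 (Snai2) in HHC against CCC. Covered length, obese minus control, ranged from -12.5 to -8.36 for Zeb1 (exact p at or above 0.05 without any one of H replicates 1, 2 or 3, C replicates 2 or 3, HH replicates 1 or 3 or CC_l replicate 2), -14.9 to 12.0 for Zeb2, -1.16 to 0.00358 for Snai1, -4.29 to -1.49 for Twist1 (exact p under 0.05 without CC_l replicate 1) and -14.0 to -8.44 for Twist2 (exact p 0.05 without CC_l replicate 2). Weight loss minus control ranged from -1.35 to 0.594 for Snai1 and -1.68 to 0.00633 for Twist1, and weight loss minus obese from 1.34 to 2.47 for Snai1 (exact p under 0.05 without HHC replicate 1) and -0.615 to 0.403 for Snai2.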
